A study of Mus musculus with 6 samples.

Results

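The lysozyme genes Lyz1 and Lyz2 and the metalloproteinase gene Mmp7 were examined in RNA-seq counts of sorted mouse Paneth cells. These 3 genes were chosen by name, as the Paneth cell lysozyme, its myeloid paralog and the protease that processes α-defensins, out of 55414 genes in the count table. All 3 had counts in every library and passed the filter on low counts, which left 9749 genes to test. The cells were sorted by FACS out of small intestine, and the mice were WT (C57BL/6J in the methods). Of the 6 libraries, 3 were from mice on standard chow (St_TNF) and 3 from mice on zinc depleted chow (ZincDef_TNF), each kept on its diet for 7 weeks. All mice, the standard diet mice included, received tumor necrosis factor (TNF) 3 hours before sampling. Mice without TNF were not analysed here, and the comparison is of the diets under TNF. The labels number the libraries 1 to 3 within a group and do not say which mouse each came from. The study describes its sorted samples in general as taken from individual mice. The p-values given here measure the spread between libraries, and the age of the mice is not stated in the labels.

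Lysozymes cut the peptidoglycan of bacterial cell walls. In the mouse, a duplication produced a neighbouring pair of genes. Lyz1, or lysozyme P, is the form that Paneth cells store in their granules, and Lyz2, or lysozyme M, is the form of macrophages and neutrophils. Mmp7, or matrilysin, is a small matrix metalloproteinase whose active site holds a zinc ion. In mouse Paneth cells it removes the pro-segment of the pro-α-defensins inside the granules, which yields the antibacterial peptides. In human Paneth cells trypsin does this work.

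The libraries held between 6139397 and 12772373 counts. The factors of TMM, a scaling that sets the bulk of the genes level between libraries, ranged from 0.459 to 1.73. With TMM the tested genes had a median log2 fold change of 0.00, and with total counts only of -0.67. A change with TMM is therefore a change relative to most other genes, and a change in CPM, counts brought to a common library total, is a change in the share of all counts. The label of the cells was checked against Paneth cell markers. Of the 28 core α-defensins 20 and of the 12 other Paneth cell products 11 passed the filter on low counts, and Lyz1 ranked second among all genes in each of the 6 libraries. Markers of other cells were summed as well. Stem cell markers had between 1174 and 3612 CPM on standard chow and between 474 and 569 CPM on zinc depleted chow, and proliferation markers had between 67.4 and 184 CPM and between 35.3 and 56.5 CPM. The sums of enterocyte and enteroendocrine markers were also lower in each zinc depleted library than in any standard diet library, so that 4 marker sums did not overlap between the diets. Most of the stem cell sum was Olfm4, at between 1120 and 3372 CPM on standard chow and between 418 and 511 CPM on zinc depleted chow. Among the single stem cell markers, Lgr5, Axin2 and Smoc2 overlapped between the diets, and Olfm4 and Ascl2 did not. In CPM, 10.3% of all tested genes were lower on zinc depleted chow without overlap. In bulk libraries, fewer cells of a type and less RNA per cell cannot be told apart.

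The lysozyme genes lie side by side on chromosome 10 and on the same strand. In the GENCODE annotation of GRCm39, Lyz1 (ENSMUSG00000069515) lies at chr10:117123698-117128775 on the minus strand and has 4 exons and a transcript of 1269 bases. Lyz2 (ENSMUSG00000069516) lies at chr10:117111557-117118346 on the minus strand, also with 4 exons, and its transcript is longer, at 2995 bases. Only 5351 bases separate the genes. Their coding sequences have the same length of 444 bases without the stop codon. They differ at 22 of these bases, an identity of 95.05%, and the encoded proteins differ at 12 of 148 residues, an identity of 91.89%. The differences are not spread evenly along the coding sequence. The following stretch of 75 bases, coding positions 302 to 376, is the same in both genes (Lyz1 at chr10:117125028-117125102, Lyz2 at chr10:117114552-117114626, GRCm39, minus strand), so that a read from it fits both.
Lyz1 and Lyz2: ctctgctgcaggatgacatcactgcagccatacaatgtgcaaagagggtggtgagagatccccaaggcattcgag
The coding stretch that differs most, positions 58 to 132, holds 12 of the differences, which are in capitals (Lyz1 at chr10:117128612-117128686, Lyz2 at chr10:117118016-117118090, GRCm39, minus strand). A read from it can be placed on one gene.
Lyz1: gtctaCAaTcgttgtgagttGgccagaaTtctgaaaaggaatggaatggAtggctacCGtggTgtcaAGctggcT
Lyz2: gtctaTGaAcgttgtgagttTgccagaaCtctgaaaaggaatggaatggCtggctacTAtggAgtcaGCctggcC

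How far counts of Lyz1 and Lyz2 can be kept apart was examined over whole transcripts. The transcripts were divided into all overlapping windows of 75 bases. Read length is described for the study's libraries as a whole but not for these, and the window length was a choice made here. Of the 1195 Lyz1 windows, 93.81% occurred in no other gene, and the same held for 86.72% of the 2921 Lyz2 windows. The genes shared 74 identical windows. Another 12.636% of the Lyz1 windows differed from the nearest Lyz2 window at 1 base and 25.774% at 2 bases. On the Lyz2 side, 70.284% of the windows differed from Lyz1 at more than 5 bases, since most of the longer Lyz2 transcript has no close counterpart in Lyz1. The annotation also places the antisense RNA gene Gm67237 over Lyz2, with 321 windows in common, and this gene was not in the count table. Neither the use of strand nor the treatment of reads with several matches is given in the sources used here for these counts.

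**Figure D1:**
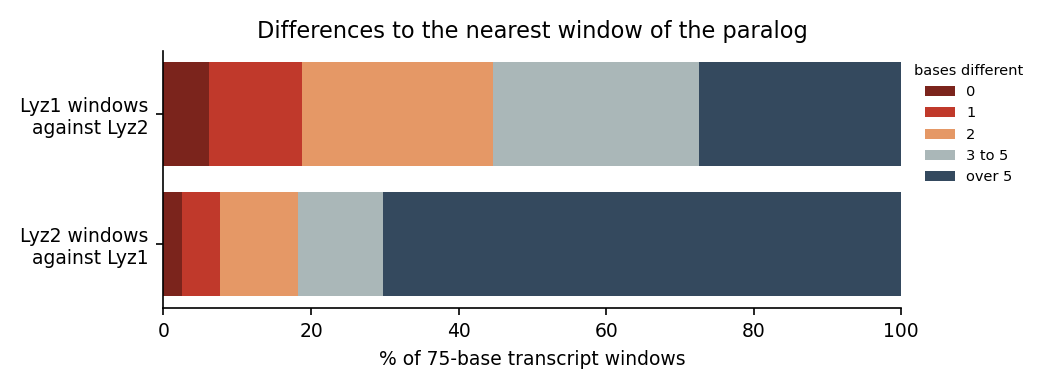
Share of all overlapping 75-base windows of the Lyz1 transcript (1195 windows) and of the Lyz2 transcript (2921 windows), in percent on the horizontal axis, by the number of bases at which a window differs from the most similar window of the other gene. Identical windows make up 6.192% of Lyz1 and 2.533% of Lyz2, and windows with more than 5 differences make up 27.364% of Lyz1 and 70.284% of Lyz2.

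The similarity extends upstream of the genes. In the 100 bases before the RefSeq start (GRCm38.p6, minus strand), Lyz1 (chr10:117292869-117292968) and Lyz2 (chr10:117282273-117282372) are the same at 92 positions. The 8 differing positions are in capitals, and the 50 bases next to the start are identical.
Lyz1: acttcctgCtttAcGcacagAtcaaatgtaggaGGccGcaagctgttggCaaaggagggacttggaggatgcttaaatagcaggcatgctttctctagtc
Lyz2: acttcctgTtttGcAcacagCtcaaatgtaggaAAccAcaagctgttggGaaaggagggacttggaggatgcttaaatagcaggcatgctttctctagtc
Over 250 bases, 200 of 248 aligned positions were identical, or 80.6%.

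Mmp7 (ENSMUSG00000018623) lies at chr9:7692091-7699587 on the plus strand (GRCm39) and has 6 exons and a transcript of 1068 bases. Of its 75-base windows, 94.97% occurred in no other gene, and 50 windows were shared with the antisense gene AV064505, which had between 3 and 13 counts per library. It stands at the end of a row of metalloproteinase genes on chromosome 9, where Mmp20 is its nearest neighbour at 17110 bases. The 250 bases before the RefSeq start of Mmp7 (GRCm38.p6, chr9:7691840-7692089, plus strand) are shown with the matches to 5 short motifs in capitals.
Mmp7: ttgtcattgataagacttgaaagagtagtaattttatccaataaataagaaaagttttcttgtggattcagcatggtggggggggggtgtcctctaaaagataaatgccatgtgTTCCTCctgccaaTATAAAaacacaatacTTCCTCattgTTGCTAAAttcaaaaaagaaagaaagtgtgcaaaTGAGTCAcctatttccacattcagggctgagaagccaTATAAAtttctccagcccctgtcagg
The motifs were searched on both strands. The TATA box letters TATAAA began 26 and 123 bases before the start, and 13% of 27018 mouse promoters hold these letters in the same 250 bases. The AP-1 letters TGAGTCA began 63 bases before the start (4.43% of promoters). The letters GAGGAA, one form of an ETS site, occurred on the opposite strand at 107 and 136 bases (23.1% of promoters). TTGCNNAA, a C/EBP pattern, began at 97 bases (9.56% of promoters). None of these matches overlapped. The TCF/LEF letters CTTTGAT (3.23% of promoters) were not in these windows of Mmp7, Lyz1 or Lyz2. The only match to the exact letters of any of the 5 motifs in the lysozyme genes was TTGCNNAA at 209 bases before Lyz1. Other forms of these motifs were not searched. The shorter ETS core GGAA, for example, is present on the opposite strand in both lysozyme sequences shown above.

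Lyz1 was among the most abundant transcripts of these cells. It had 877354, 913920 and 1615961 counts in standard diet replicates 1, 2 and 3 and 1565830, 1428166 and 2191738 counts in the zinc depleted replicates. As a share of all counts this was 11.95%, 14.9% and 16.2% on standard chow and 15.7%, 19.2% and 17.2% on zinc depleted chow. Standard diet replicate 1 was lowest and zinc depleted replicate 2 highest, and the diets overlapped because zinc depleted replicate 1 lay below standard diet replicate 3. The means were 143457 ± 21717 CPM (SD, n = 3) and 173507 ± 17831 CPM (SD, n = 3). Wilson 95% intervals of these shares, which cover counting error only, were narrow: that of the lowest library, for example, ran from 11.93% to 11.98%.

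Lyz2 was low and uneven. It had 258, 247 and 955 counts in the St_TNF libraries and 353, 410 and 715 counts in the ZincDef_TNF libraries. This was 35.2, 40.2 and 95.7 CPM on standard chow and 35.3, 55.2 and 56.0 CPM on zinc depleted chow. Standard diet replicate 3 stood above the other 5 libraries. Its Wilson 95% interval of 89.8 to 102 CPM did not meet that of the next highest library, zinc depleted replicate 3, at 52.0 to 60.2 CPM. These intervals cover counting error only. Libraries of a group differed by more than counting error over all genes, so the gap is not particular to Lyz2. The means were 57.0 ± 33.6 CPM (SD, n = 3) and 48.8 ± 11.7 CPM (SD, n = 3), so that the SD was 58.9% of the mean on standard chow and 24.0% on zinc depleted chow. By counts, Lyz2 ranked 299th in standard diet replicate 3 and between 362nd and 1679th in the other libraries.

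Mmp7 was abundant in all libraries, with ranks between 13 and 15. It had 42411, 29105 and 47955 counts on standard chow and 51635, 49078 and 92590 counts on zinc depleted chow. This was 5779, 4741 and 4806 CPM on standard chow and 5168, 6605 and 7249 CPM on zinc depleted chow. Zinc depleted replicates 2 and 3 lay above all other libraries, and the diets overlapped because zinc depleted replicate 1 lay below standard diet replicate 1. The means were 5109 ± 581 CPM (SD, n = 3) and 6341 ± 1066 CPM (SD, n = 3). Per kilobase of transcript, the level on standard chow was 113047 ± 17114 CPM for Lyz1, 4783 ± 544 CPM for Mmp7 and 19.0 ± 11.2 CPM for Lyz2 (SD, n = 3). With zinc depletion it was 136727 ± 14051, 5937 ± 998 and 16.3 ± 3.91 CPM per kilobase (SD, n = 3). The order Lyz1, Mmp7, Lyz2 held in every library with no overlap between the genes.

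**Figure D2:**
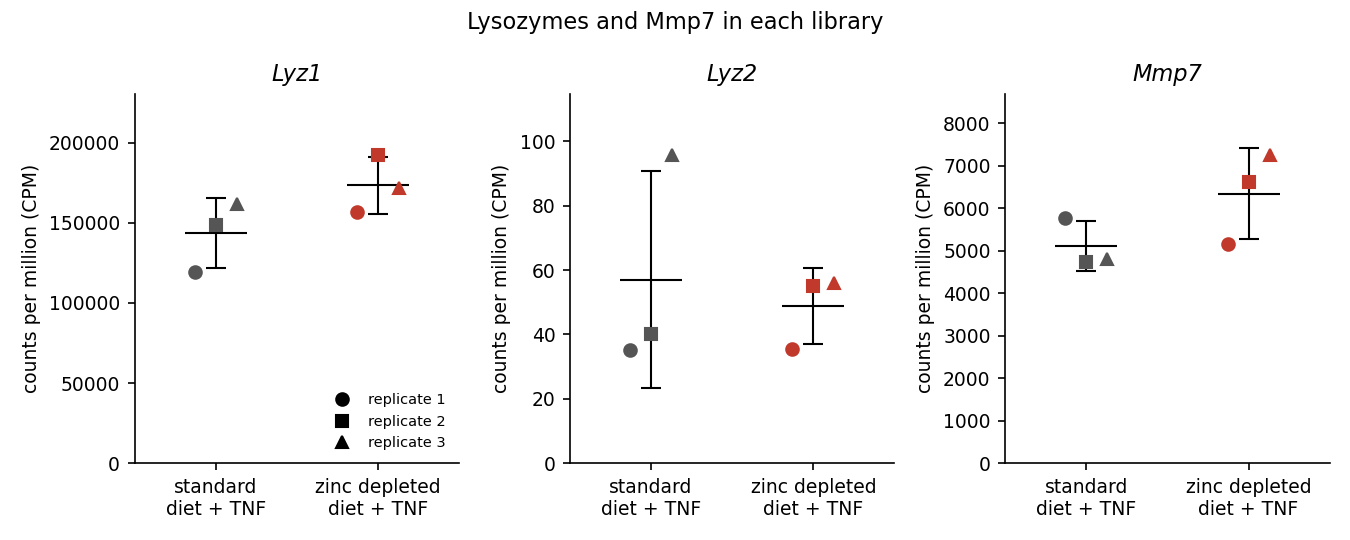
Level of Lyz1, Lyz2 and Mmp7 in each of the 6 libraries, in CPM on a linear axis that starts at 0. Points are libraries (the symbol gives the replicate number), the long horizontal line is the group mean and the bars are 1 SD (n = 3). The diets overlap for each gene, and standard diet replicate 3 stands apart for Lyz2 at 95.7 CPM.

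Whether zinc depletion went with a different level of these genes was tested with the quasi-likelihood test of edgeR and TMM. The log2 fold change, zinc depleted over standard diet, was 1.16 for Lyz1 (adjusted p 0.710 by edgeR, SE 0.86), 0.59 for Lyz2 (adjusted p 0.812 by edgeR, SE 0.69) and 1.32 for Mmp7 (adjusted p 0.681 by edgeR, SE 0.65). None of the 3 passed the threshold of 0.05, and none had an unadjusted p under 0.05 in this fit. Over all tested genes, 0.0% passed: edgeR called 0 of 9749 genes, DESeq2 called 6 and limma-voom 0, while 645 genes had an unadjusted p under 0.05 in edgeR. At that unadjusted threshold, 2.58% of the tested genes were higher on zinc depleted chow. The values were not called but stood high in the order of all tested genes. The log2 fold change of Mmp7 was higher than that of 97.9% of the tested genes, that of Lyz1 higher than 96.5% and that of Lyz2 higher than 82.3%.

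These fold changes depended on the scaling. With total counts only, they were 0.27 for Lyz1 (SE 0.17), 0.31 for Mmp7 (SE 0.25) and -0.23 for Lyz2 (SE 0.53), so that the direction of Lyz2 turned. The spread between libraries was wide with TMM: the highest library exceeded the lowest by 5.41-fold for Lyz1, 6.0-fold for Lyz2 and 5.03-fold for Mmp7, against 1.61-fold, 2.72-fold and 1.53-fold in CPM. The diets overlapped for each of the 3 genes on both scales. Among all tested genes, 0.554% were higher on zinc depleted chow without overlap in CPM, and 3.51% with TMM. Single libraries also moved the values. Without standard diet replicate 3, the log2 fold change was 1.76 for Lyz2 (edgeR adjusted p 0.248). It was 0.14 without zinc depleted replicate 3, 0.21 without standard diet replicate 1, 0.28 without standard diet replicate 2 and 1.03 without zinc depleted replicate 1. For Mmp7 it was 1.73 without zinc depleted replicate 1 (edgeR adjusted p 0.117), and leaving out zinc depleted replicate 3 gave 0.85. In edgeR without zinc depleted replicate 1, the unadjusted p was 0.00263 for Mmp7 and 0.0279 for Lyz1. Such values were common in that fit: 2418 of 10010 tested genes had an unadjusted p under 0.05, of which 1233 were higher on zinc depleted chow. DESeq2 gave 1.33 for Mmp7 (SE 0.50, DESeq2 p 0.00729 unadjusted and 0.683 adjusted) and 1.18 for Lyz1 (SE 0.50, DESeq2 p 0.0186 unadjusted and 0.823 adjusted). With DESeq2, 931 of 17776 genes had an unadjusted p under 0.05, of which 466 were higher on zinc depleted chow.

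**Figure D3:**
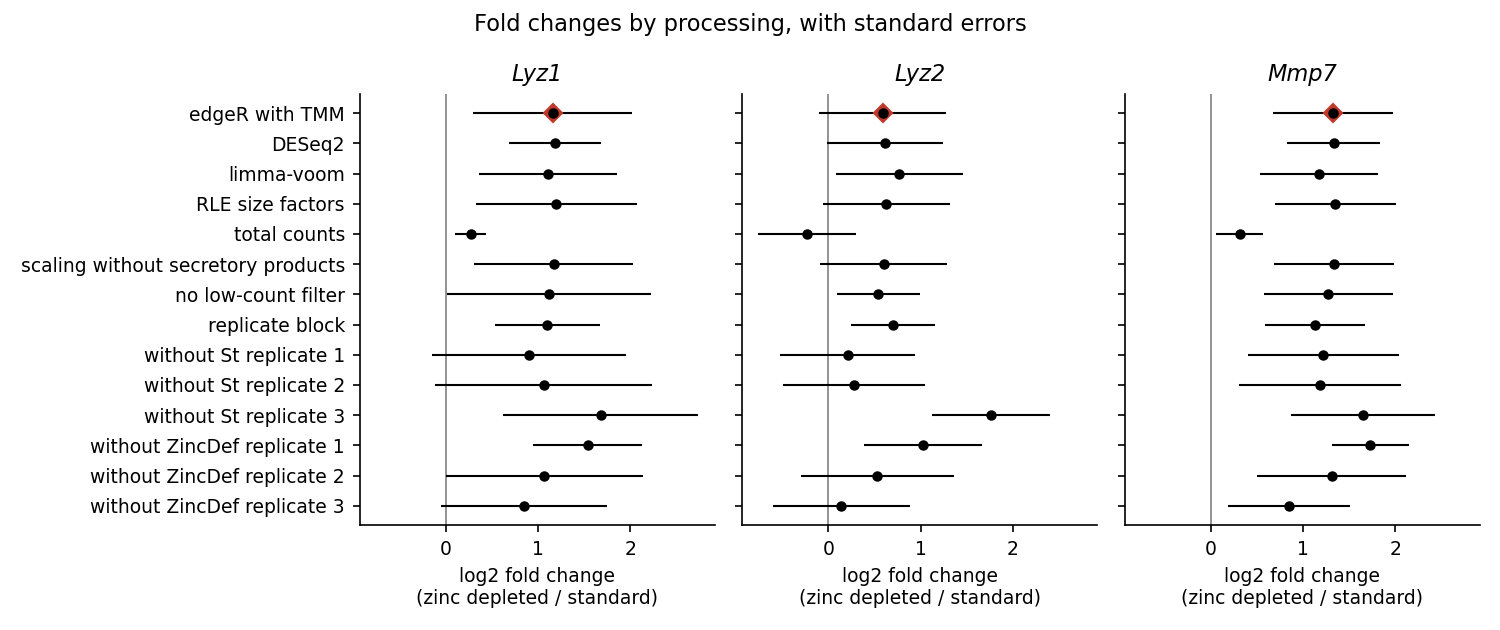
Log2 fold change of Lyz1, Lyz2 and Mmp7 (zinc depleted over standard diet, horizontal axis) with edgeR and TMM (red diamond) and under 13 other settings (points), each with its standard error as a bar; the vertical line marks no change. Values of Lyz1 lie between 0.27 and 1.68 and those of Mmp7 between 0.31 and 1.73, and the value of Lyz2 with total counts, -0.23, is the only one below 0.

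The ratio of the paralogs within a library needs no scaling between libraries. For each Lyz2 count there were 3401, 3700 and 1692 Lyz1 counts in the St_TNF libraries and 4436, 3483 and 3065 in the ZincDef_TNF libraries. Standard diet replicate 3 had the smallest excess of Lyz1, and zinc depleted replicate 1 the largest. Corrected for transcript length, the log2 ratio of Lyz2 to Lyz1 was -12.68 ± 0.62 (SD, n = 3) on standard chow and -13.06 ± 0.27 (SD, n = 3) on zinc depleted chow. The difference of -0.38 was smaller than the spread on standard chow (p = 0.5, exact two-sided permutation test, adjusted over 4 ratios 0.667). With 3 libraries against 3, this test cannot go below 0.1. Without standard diet replicate 3 the difference was -0.03. Lyz2 thus came to between 0.0225% and 0.0591% of the Lyz1 counts. The count table does not show from which stretches of the transcripts the reads came, so the part of the near-identical stretches in the Lyz2 counts was not tested.

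Mmp7 was set against its α-defensin substrates, whose 28 core genes were summed per kilobase of transcript. Several of these genes had almost no counts, as given below. For every 1000 units of α-defensin there were 4.94, 4.13 and 3.43 units of Mmp7 in the St_TNF libraries and 4.38, 4.69 and 4.75 in the ZincDef_TNF libraries. The standard diet libraries held both the highest and the lowest of these values, and the zinc depleted libraries lay between them. The log2 ratio was -7.92 ± 0.26 (SD, n = 3) on standard chow and -7.76 ± 0.06 (SD, n = 3) on zinc depleted chow, a difference of 0.16 (p = 0.4, exact two-sided permutation test, adjusted 0.667). Against Defa24 alone, the most abundant α-defensin, there were 2.71, 2.23 and 1.94 Mmp7 counts per 100 Defa24 counts on standard chow and 2.37, 2.34 and 2.37 on zinc depleted chow. Over the 6 libraries Mmp7 itself ranged 1.53-fold in CPM and 5.03-fold with TMM, and its ratio to the summed α-defensins ranged 1.44-fold.

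The lysozymes were set against the same α-defensins. Lyz1 and Lyz2 together came to 86.0, 109 and 97.3 units per 1000 units of α-defensin on standard chow and 112, 115 and 94.7 on zinc depleted chow, per kilobase of transcript. Zinc depleted replicates 1 and 2 were highest and standard diet replicate 1 was lowest, and the diets overlapped. The log2 ratio was -3.37 ± 0.17 (SD, n = 3) and -3.23 ± 0.15 (SD, n = 3), a difference of 0.14 (p = 0.4, exact two-sided permutation test, adjusted 0.667). Mmp7 against Lyz1 gave 57.4, 37.8 and 35.3 units per 1000 on standard chow and 39.2, 40.8 and 50.2 on zinc depleted chow. The log2 ratio of Mmp7 to Lyz1 was -4.56 ± 0.38 (SD, n = 3) and -4.53 ± 0.19 (SD, n = 3), and its difference of 0.02 (p = 0.9, exact two-sided permutation test, adjusted 0.9) had no stable direction when single libraries were left out: it was -0.11 when standard diet replicate 3 was omitted and 0.24 when standard diet replicate 1 was. The ratios of both genes to Itln1, another abundant Paneth cell product, were more variable. The difference between the diets in log2 ratio was 0.74 for Mmp7 to Itln1 (p = 0.3, exact two-sided permutation test) and 0.72 for Lyz1 to Itln1 (p = 0.2, exact two-sided permutation test), and the diets overlapped in both.

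**Figure D4:**
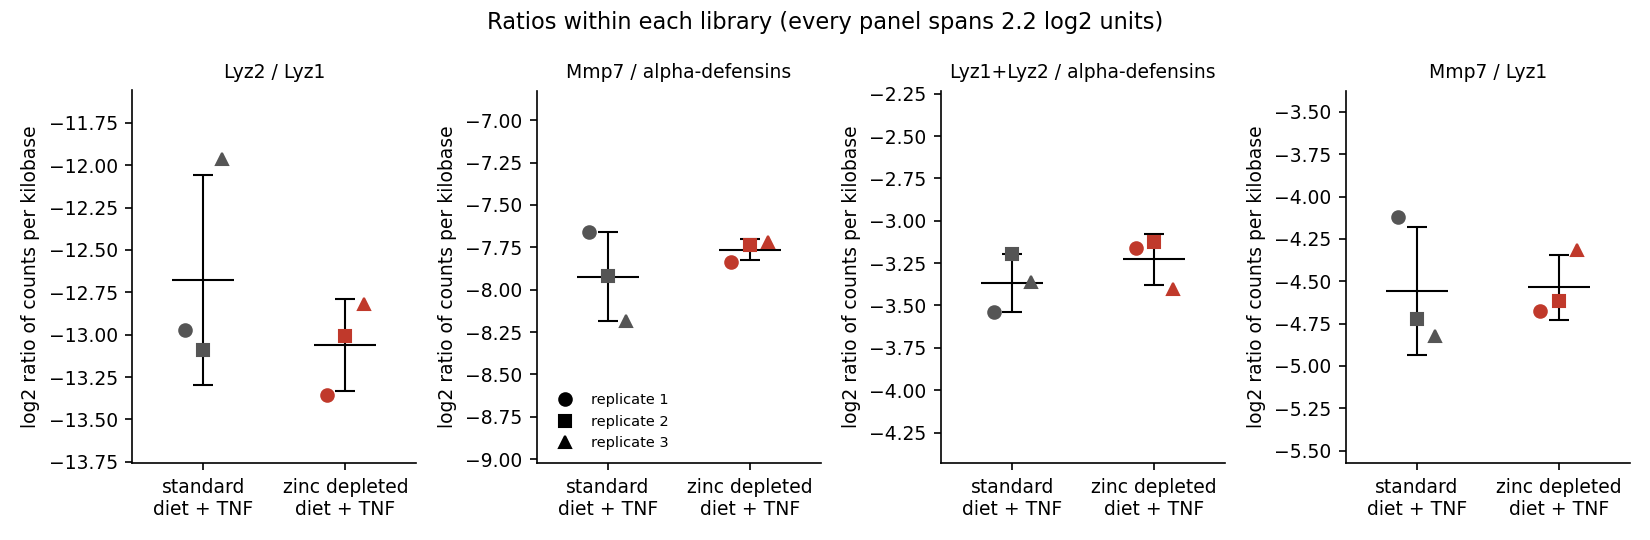
Log2 ratios of counts per kilobase of transcript within each library: Lyz2 to Lyz1, Mmp7 to the sum of 28 α-defensins, both lysozymes to the same sum, and Mmp7 to Lyz1. Points are libraries, long lines are means and bars are 1 SD (n = 3), and each panel spans the same number of log2 units. The diets overlap in every panel, and the ratio of Lyz2 to Lyz1 shows the widest range, 1.39 log2 units.

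The α-defensins, the precursors on which Mmp7 acts, had fold changes of similar size. Of the 28 core genes 20 were tested, and 19 had a higher and 1 a lower level on zinc depleted chow, with a median log2 fold change of 1.16 against 0.00 over all tested genes. With total counts only, 15 of 20 were higher, with a median of 0.22 against -0.67 over all genes. None was called, and 5 of the 20 were higher at an unadjusted p under 0.05, against 2.58% of all tested genes. Defa24 had 213286, 212876 and 248187 CPM on standard chow and 218081, 282425 and 305642 CPM on zinc depleted chow, a log2 fold change of 1.21 (adjusted p 0.714 by edgeR, SE 0.91). The diets overlapped, with zinc depleted replicate 1 among the standard diet libraries. Defa30 had a log2 fold change of 0.59 (adjusted p 0.828 by edgeR, SE 0.80) and Defa39 of 1.04 (adjusted p 0.713 by edgeR, SE 0.77). Only 10 of the 28 α-defensin transcripts had at least 50% of their 75-base windows to themselves, and these 3 were among them, with 93.39%, 81.18% and 86.61%. The value of a single α-defensin below that share is uncertain. The 8 α-defensins that were not tested had at most 14 counts in any library. Among them, Defa23 had 2 counts in zinc depleted replicate 1 and 0 in the other libraries, with 25.9% of its windows found in no other gene, and Defa2 had at most 3 counts, with none of its windows to itself. Defa20 had at most 7 counts and Defa36 at most 1, and Defa43, which was tested, had at most 46. Defa20, Defa36 and Defa43 had none of their windows to themselves either. The paper, which quantified transcripts with Salmon, lists Defa2, Defa23, Defa20, Defa43 and Defa36 among the abundant α-defensins of a typical experiment. The sum against which Mmp7 and the lysozymes were set is thus that of the α-defensins as counted. The ratios are therefore not read as levels of the protease against all of its substrates. This sum and the ratios to it depend on how reads with several matches were treated. Whether the sum leaves out reads of such α-defensins was not tested.

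Other Paneth cell products, among them antimicrobial lectins and also Clps, a colipase, were listed beside these. Of 12 listed, 11 were tested and all 11 had a higher level on zinc depleted chow, with a median log2 fold change of 0.78 against 0.00 over all tested genes, and 4 were higher at an unadjusted p under 0.05, against 2.58% of all tested genes. With total counts only, 6 of 11 were higher, with a median of 0.12 against -0.67 over all genes. Ang4, an antimicrobial ribonuclease, had a log2 fold change of 1.46 (adjusted p 0.681 by edgeR, SE 0.71). Mptx2, a pentraxin, had 10035, 9036 and 8649 CPM on standard chow and 7798, 20621 and 20655 CPM on zinc depleted chow, a log2 fold change of 1.94 (adjusted p 0.681 by edgeR, SE 0.79). As for Mmp7, zinc depleted replicates 2 and 3 were highest, and zinc depleted replicate 1 was lowest of the 6 libraries in Mptx2. Itln1, an intelectin that binds microbial sugars, had a log2 fold change of 0.36 (adjusted p 0.881 by edgeR, SE 0.68), and had 55419, 66046 and 57816 CPM on standard chow and 63894, 37776 and 35482 CPM on zinc depleted chow. Unlike Mmp7, it was lowest in CPM in zinc depleted replicates 2 and 3.

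The other matrix metalloproteinases had few counts. Of the 22 listed beside Mmp7, 15 had at least 1 count and 4 were tested, of which 3 had a higher and 1 a lower level on zinc depleted chow, and none was called. Mmp15, a membrane-bound metalloproteinase, had the most counts per library on average, with 53.8, 88.0 and 22.7 CPM on standard chow and 68.9, 14.3 and 6.97 CPM on zinc depleted chow, a log2 fold change of -0.43 (adjusted p 0.809 by edgeR, SE 0.50). Mmp14, also membrane-bound, had a mean of 9.20 CPM over the 6 libraries and a log2 fold change of 0.13 (adjusted p 0.938 by edgeR, SE 0.43). Mmp20, the enamel protease gene next to Mmp7, had 13.2, 8.31 and 8.52 CPM on standard chow and 12.01, 11.8 and 14.1 CPM on zinc depleted chow. Its log2 fold change of 1.33 (adjusted p 0.681 by edgeR, SE 0.49) was close to that of Mmp7. For every 1000 Mmp7 counts there were 2.29, 1.75 and 1.77 Mmp20 counts on standard chow and 2.32, 1.79 and 1.94 on zinc depleted chow, a 1.33-fold range over all 6 libraries. Whether these Mmp20 counts come from Mmp20 transcripts or from reads that run between the neighbouring genes was not tested. Mmp8, Mmp9 and Mmp12, the metalloproteinases of neutrophils and macrophages, had at most 11 counts in any library.

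The inhibitors and the other candidates for these functions were scarce. Of 5 metalloproteinase inhibitors, all had a count and 1, Timp2, was tested, with between 5 and 25 counts and a log2 fold change of 1.10 (adjusted p 0.713 by edgeR, SE 0.82). The summed inhibitors had 2.05 ± 1.19 CPM (SD, n = 3) on standard chow and 1.77 ± 0.76 CPM (SD, n = 3) on zinc depleted chow. Of the 7 trypsinogen genes listed, whose human counterparts process α-defensins, 6 were in the count table, and all 6 had 0 counts in every library. A count of 0 allows up to 3 counts, so these genes were not detectable at this depth. Of 8 other genes of the lysozyme family, 7 had 0 counts in every library and Lyzl4 had 1 count in standard diet replicate 3 and 2 in zinc depleted replicate 3. The lysozyme counts of these cells were therefore those of Lyz1 and, at a far lower level, of Lyz2.

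Because Lyz2 is the lysozyme of myeloid cells, myeloid markers were summed beside it. The 21 markers, of which 19 had a count, came to 31.2, 33.6 and 21.5 CPM in the St_TNF libraries and 14.7, 26.5 and 25.4 CPM in the ZincDef_TNF libraries. Standard diet replicate 3, the library with the most Lyz2, lay below the other standard diet libraries in this sum. The means were 28.8 ± 6.36 CPM (SD, n = 3) and 22.2 ± 6.53 CPM (SD, n = 3), a difference of -6.54 CPM (p = 0.3, exact two-sided permutation test). The most abundant of them were Cd14, Ctss and C1qb, of which Cd14 and Ctss can also be expressed by epithelial cells. The macrophage markers Itgax and Cx3cr1 were at 0 in all libraries, Csf1r had between 2 and 6 counts and Adgre1 between 0 and 8. Other macrophage markers had more counts and were present in every library. C1qa had between 11 and 65 counts, C1qb between 16 and 43, C1qc between 5 and 30 and Cd68 between 4 and 16. The neutrophil gene S100a9 had 13 counts in standard diet replicate 3, 1 in zinc depleted replicate 3 and 0 in the other libraries, and S100a8 had 4 counts in standard diet replicate 3 and at most 2 elsewhere. Single markers depended on the scaling. On the TMM scale, 6 of the 7 tested myeloid markers had a higher and 1 a lower level on zinc depleted chow, and none was called. Scaled by library totals instead, 3 of these markers had a higher level there. Their median log2 fold change was 1.12 on the TMM scale and -0.01 by library totals. The medians over all tested genes on these scales were 0.0 and -0.67. The part of myeloid RNA in the Lyz2 counts was not tested.

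Standard diet replicate 3 was also highest in some α-defensins. Of the 10 tested α-defensins with under 50% of their windows to themselves, 4 were highest in CPM in that library, 4 in zinc depleted replicate 2 and 2 in zinc depleted replicate 3. Of the 10 with a larger share, 2 were highest in standard diet replicate 3, 6 in zinc depleted replicate 3, 1 in standard diet replicate 1 and 1 in zinc depleted replicate 2. How many of all tested genes were highest in each library was not counted, so no difference by window share is drawn from these numbers. The following 3 were picked for their likeness to Lyz2 or after their values were seen. Defa5 had 665, 719 and 1996 CPM on standard chow and 837, 1351 and 1272 CPM on zinc depleted chow. Defa3 had 228, 165 and 430 CPM on standard chow and 155, 219 and 252 CPM on zinc depleted chow. Both were highest in standard diet replicate 3, as Lyz2 was. Defa17 had 7048 CPM in that library and between 1788 and 1929 CPM in the other 5. In these 3 genes, 2.32%, 8.05% and 8.07% of the 75-base windows are found in no other gene. Other α-defensins with few such windows differed. Defa42 (1.42%) and Defa31 (0.0%), both of few counts, were lowest in CPM in that library, at 2.81 and 0.902 CPM. Lyz1, at 16.2% of the counts, was not set apart in the same library.

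**Figure D5:**
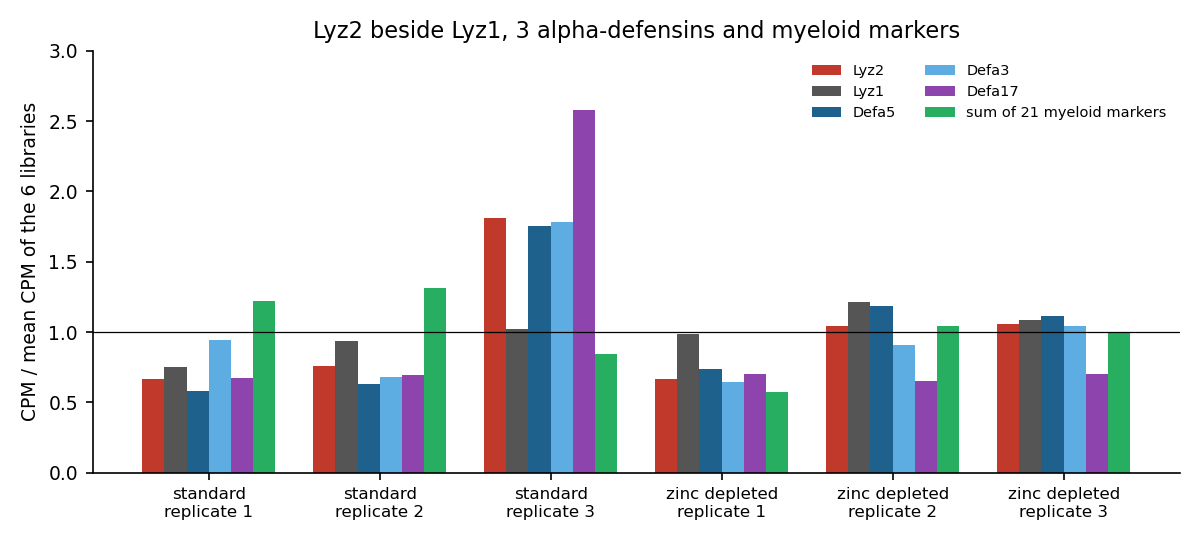
Level of Lyz2, Lyz1, 3 α-defensins and the sum of 21 myeloid markers in each library, as CPM divided by the mean CPM of that gene or sum over the 6 libraries, on a linear axis from 0; the horizontal line marks the mean. Lyz2 (95.7 CPM), Defa5 (1996 CPM), Defa3 (430 CPM) and Defa17 (7048 CPM) are highest in standard diet replicate 3, where the myeloid sum is 21.5 CPM.

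Markers of other cells of the crypt and villus differed between libraries along with these genes. Goblet markers had 2864, 2953 and 1547 CPM on standard chow and 6468, 1753 and 1859 CPM on zinc depleted chow. Their sum was highest in zinc depleted replicate 1, the zinc depleted library with the lowest Mmp7 and Lyz1. Most of the sum there was Muc2, at 4532 CPM. Single goblet markers differed: Muc2, Spdef and Clca1 were highest in that library, Tff3 in zinc depleted replicate 2, Agr2 in zinc depleted replicate 3, and Fcgbp and Zg16 in standard diet replicate 2. Enterocyte markers had 89.4, 204 and 33.3 CPM on standard chow and 26.5, 27.5 and 29.4 CPM on zinc depleted chow. Tuft cell markers had between 21.6 and 665 CPM and lymphoid markers at most 3.21 CPM. Enteroendocrine markers had 67.9, 84.4 and 36.1 CPM on standard chow and 23.5, 29.3 and 34.7 CPM on zinc depleted chow. All 4 tested stem cell markers and 4 of 5 proliferation markers had a lower level on zinc depleted chow, and none was called by edgeR. Standard diet replicates 1 and 2 had the highest stem cell marker sums, mostly of Olfm4, at 3612 and 1371 CPM, and the lowest shares of Lyz1. The part of these cells in the levels of Lyz1, Lyz2 and Mmp7 was not tested.

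The genes whose pattern over the 6 libraries was most like that of each member were listed among 1106 well expressed genes, by Pearson's r of log2 CPM with TMM. These values are descriptions, since all points share the scaling and depth of their library. For Lyz1 the first were Dph3 (r = 0.997), Dynll1 (0.995), Grpel1, Arpc5 and Smim7 (0.994 each). For Lyz2 they were Defa5 (r = 0.992), Defa3 (0.978), the translation initiation helicase Eif4a1 (0.975), the proteasome subunit Psmb10 (0.974) and Serf2 (0.971). For Mmp7 they were Tmed3, a cargo protein of the early secretory pathway (r = 0.998), the lysosomal membrane protein Lamp2 (0.996), Rps27l and the guanylate kinase Guk1 (0.995 each) and Ifitm3 (0.994). Only 6 of these 15 genes were again among the 5 most alike with total counts only, namely Dph3 and Dynll1 for Lyz1, Defa5 and Defa3 for Lyz2, and Guk1 and Rps27l for Mmp7. For Tmed3, r was -0.467 on that scale. Uba2 (r = 0.863), Defa17 (0.832) and Srsf3 (0.827) followed Defa5 and Defa3 for Lyz2 there. Between the members, r was 0.923 for Lyz1 and Lyz2, 0.961 for Lyz1 and Mmp7 and 0.860 for Lyz2 and Mmp7 with TMM, and 0.518, 0.375 and -0.001 with total counts only. Defa5 was thus the gene most like Lyz2 on both scales, whereas the likeness of the members to each other was seen mainly with TMM.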

How the data were processed

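For 6 libraries the authors deposited a table of counts of reads in each Ensembl gene, without normalization. Per the labels, single-end reads were sequenced on an Element AVITI instrument. The submitters' processing notes name FastQC, Trimmomatic 0.39, STAR 2.7.10a, DESeq2 and the build mm39. The counting program is not given in the sources used here. Gene symbols, exons and transcripts were taken from the GENCODE M39 annotation of GRCm39, which held 54749 of the 55414 identifiers, and the others took at most 0.00479% of the counts of a library.

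Counts were tested with edgeR 4.0.16 in R 4.3.3 (TMM, filterByExpr with a minimum count of 10, quasi-likelihood F test, two-sided, diet as the only term) with Benjamini-Hochberg adjustment over the 9749 genes tested. The biological coefficient of variation was 44%. Ratios used counts per kilobase of the canonical transcript, or as alternatives counts, counts per unique window and a sum of only the 10 α-defensins with mostly unique windows, and an exact permutation test (scipy 1.17.1). Log2 CPM for likeness used a prior count of 2 and genes with a mean of at least 5. Upstream sequences came from RefSeq (GRCm38.p6). The tests were tried first on simulated counts. Alternatives were DESeq2 1.42.0, limma-voom (limma 3.58.1), RLE factors, total counts, TMM without secretory products, no low-count filter, a replicate block and leaving out each library.

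Besides the 3 genes, the text names the 3 most abundant genes of a list and the 5 genes most like each member. Other named genes were chosen after their values were seen. The genes, lists and motifs were chosen with earlier results of these data known. The design text speaks of 4 replicates per group, and the labels give 3. No 2 libraries of a group agreed within sampling noise (chi-square per degree of freedom of at least 15.3).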

Additional observations from a re-analysis of the deposited data

How the results depend on the processing

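Of 98 values computed under other settings, 90 were labelled the same, and 4 turned their direction. For fold changes, ratios and the myeloid sum, the same meant the same direction and the same side of 0.05. For the number of genes called it meant 0 genes, as with edgeR and TMM, and for the genes most alike it meant a similar number. The exact tests of the ratios and the myeloid sum could not pass 0.05 in any setting, so for them only the direction could turn. The number of genes called was 6 with DESeq2 and 76 without the low-count filter, and from 0 to 28 with 1 library left out, the 28 without standard diet replicate 3. In none of these fits was Lyz1, Lyz2 or Mmp7 called, with adjusted p from 0.166 to 1.00, from 0.248 to 1.00 and from 0.117 to 1.00. The log2 fold change of Lyz2 was -0.23 with total counts. With 1 library left out it ran from 0.14 to 1.76, that of Lyz1 from 0.85 to 1.68 and that of Mmp7 from 0.85 to 1.73. The difference in the log2 ratio of Mmp7 to Lyz1 was -0.06 without standard diet replicate 2, -0.11 without standard diet replicate 3 and -0.09 without zinc depleted replicate 3, and 0.24 at most. The differences ran from -0.59 to -0.03 for Lyz2 to Lyz1, from 0.03 to 0.29 for Mmp7 to the α-defensins and from 0.05 to 0.22 for the lysozymes to the α-defensins, and the myeloid sum from -10.15 to -2.79 CPM. Of the 15 genes most like the members, 6 were found again with total counts. Causes were not tested.

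Whether the replicate numbers pair the libraries was not settled. Deviations of same-numbered libraries from their group means had correlations of 0.147, -0.058 and 0.248, and those of other-numbered libraries ran from -0.278 to 0.25. Standard diet replicates 1 and 3 were most like their own number, and standard diet replicate 2 was most like zinc depleted replicate 1. With the replicate block, edgeR called 0 genes (962 at an unadjusted p under 0.05, against 645 without the block). The smallest adjusted p by edgeR was 0.212 with the block and 0.681 without it. With the block, the log2 fold changes were 1.10 for Lyz1 (SE 0.57), 0.70 for Lyz2 (SE 0.46) and 1.13 for Mmp7 (SE 0.54). With 3 libraries per group, no exact test of a ratio could pass 0.05.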
